A study of Homo sapiens with 4 samples.

Results

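Metallothioneins are small cysteine-rich proteins, and their genes were followed here in NB4 cells, an established human acute promyelocytic leukemia (APL) line, and in a line derived from it that is resistant to arsenic trioxide (ATO). The members were the 10 genes MT1A, MT1B, MT1E, MT1F, MT1G, MT1H, MT1M, MT1X, MT2A and MT3, taken by the gene name that the array gives its probes, out of 18211 named genes on the array. They were picked with their values in both lines already known, so that the values of the members in naive and resistant cells are a description and carry no test. RNA was taken from 2 flasks of naive NB4 cells, with no treatment named, and from 2 flasks of the ATO resistant NB4 cells, and each flask was hybridized to 1 one-colour Agilent array. The resistant cells are 1 clone derived in-house, named NB4-VM-AsR1 in the labels and NB4-EV-AsR1 in the methods, and had been kept free of ATO for 1 week. Both lines were grown in RPMI medium with fetal bovine serum. All arrays lay on 1 slide, with the naive flasks at the first positions and the resistant flasks at the last, so that position on the slide and line cannot be told apart.

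Metallothioneins bind zinc, copper and cadmium through clusters of thiols, and the same thiols can hold trivalent arsenic. MT2A and the MT1 genes lie in 1 cluster and are switched on by metal ions through the zinc-sensing transcription factor MTF1, which binds short metal response elements in their promoters, and also by glucocorticoids, heat, oxidative stress and interferon. MT3 is best known from brain and MT4 from stratified epithelium, and neither is a typical metal-inducible gene of blood cells.

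On the 4 arrays between 27922 and 28244 of 41000 probes were well above background, which is the scanner software's own test of a spot against its surroundings, and 457 to 565 were saturated. Values are log2 processed signals from which the 75th percentile of the same array was subtracted, so a value of 0 is the level below which 75% of the probes lie. The labelled cell type was checked by its markers. MPO, the myeloperoxidase of promyelocyte granules, was at 5.96 and 6.20 in the naive flasks and at 5.98 and 6.29 in the resistant ones. Of 8 myeloid markers 7 or 8 were well above background on each array, and limma called 2 higher and 1 lower in the resistant line. Of 5 T cell markers 3 (CD3D, CD3G and CD8A) were called lower in the resistant line, with a summed log2 level of 1.10 and 1.49 in the naive flasks and of -2.86 and -2.63 in the resistant flasks, while CD3E was at -4.34 and -4.05 against -4.24 and -4.17. CD2, the other T cell marker, was at -5.11 and -4.90 in the naive and at -4.29 and -3.67 in the resistant flasks, a difference of 1.02 that was not called (limma adjusted p of 0.151). The summed levels ranged from 0.58 to 0.82 over all flasks for the 5 B cell markers, from -3.34 to -2.92 for the 5 erythroid markers and from -4.42 to -4.16 for the 6 stromal markers, and for the 5 epithelial markers they were 2.92 and 3.38 in the naive and 1.99 and 2.14 in the resistant flasks. Of the tested markers 1 of 3 for B cells and 1 of 4 for epithelium were called lower in the resistant line. The part of the T cell, B cell and epithelial markers in the values below was not tested.

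The promoters of 4 members were found in RefSeq's table of the assembly GRCh38.p14 (MT1A, MT1E, MT1F, MT1G, MT1M and MT3 were not matched) and are shown because these genes lay apart between the lines in the same direction. Each line gives the 250 bases before the annotated transcription start, on the plus strand of chromosome 16, with every match to the core of the metal response element in capitals. The core was searched as TGCACNC or TGCGCNC on both strands, and no matches overlapped.
MT2A, chr16:56608334-56608583: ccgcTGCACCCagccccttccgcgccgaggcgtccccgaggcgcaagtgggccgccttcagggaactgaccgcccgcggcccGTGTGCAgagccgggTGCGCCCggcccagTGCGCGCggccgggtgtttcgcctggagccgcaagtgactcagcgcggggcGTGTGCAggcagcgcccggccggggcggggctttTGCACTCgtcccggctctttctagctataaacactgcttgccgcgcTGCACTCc
MT1X, chr16:56682220-56682469: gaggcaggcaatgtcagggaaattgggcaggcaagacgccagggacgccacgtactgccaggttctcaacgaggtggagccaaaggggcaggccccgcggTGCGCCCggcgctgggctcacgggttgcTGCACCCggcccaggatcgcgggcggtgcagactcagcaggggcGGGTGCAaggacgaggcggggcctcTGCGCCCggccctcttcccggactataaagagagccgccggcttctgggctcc
MT1H, chr16:56669564-56669813: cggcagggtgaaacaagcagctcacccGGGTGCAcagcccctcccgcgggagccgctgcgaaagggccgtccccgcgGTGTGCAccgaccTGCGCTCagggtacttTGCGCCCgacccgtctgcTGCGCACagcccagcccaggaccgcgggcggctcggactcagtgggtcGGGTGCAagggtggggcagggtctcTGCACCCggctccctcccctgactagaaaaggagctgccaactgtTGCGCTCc
MT1B, chr16:56651636-56651885: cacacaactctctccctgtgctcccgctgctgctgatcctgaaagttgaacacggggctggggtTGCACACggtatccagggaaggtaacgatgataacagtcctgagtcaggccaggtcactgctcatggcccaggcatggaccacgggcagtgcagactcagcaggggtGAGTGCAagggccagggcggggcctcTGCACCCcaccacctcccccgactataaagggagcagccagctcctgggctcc
MT2A held 7 matches, MT1X 4, MT1H 8 and MT1B 3. Of 35116 RefSeq promoters of the same length 24.8% held at least 1 match, 1.05% at least 3, 0.208% at least 4 and 0.0228% at least 7. Matches lay 53 or 54 bases before the start in all 4 promoters, and 78 or 79 bases before it, on the other strand, in MT1X, MT1H and MT1B. The letters TATAAA of a TATA box stood 29 bases before the start in MT2A and 30 before it in MT1X and MT1B, and were not in the MT1H window. The promoter of MT4, which is not a member, held 3 matches. A match is a stretch of letters and not a measured binding site.

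**Figure D1:**
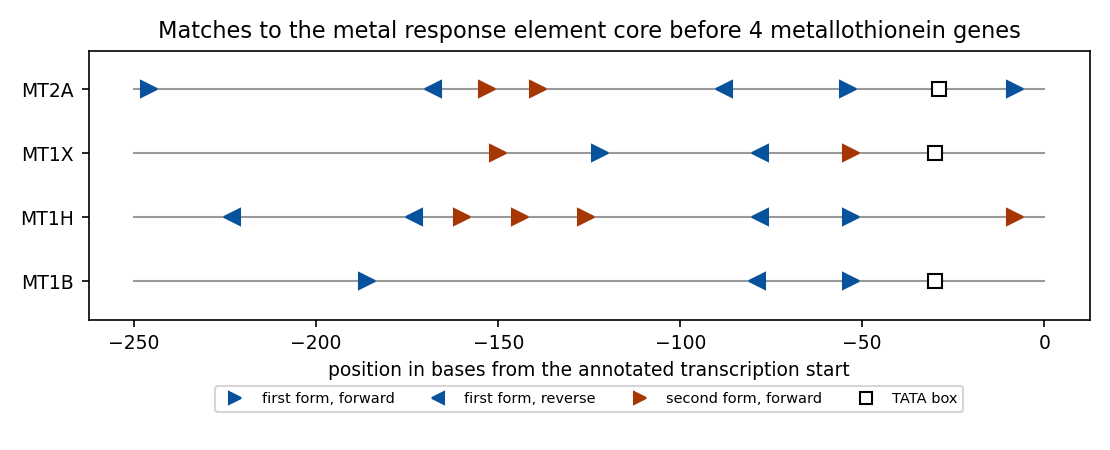
Matches to the metal response element core in the 250 bases before the transcription start of MT2A, MT1X, MT1H and MT1B. The horizontal axis is the position from the start in bases, triangles are the 2 forms of the core (TGCACNC in blue, TGCGCNC in red) pointing along their strand, and squares are TATA boxes. All 4 genes have a match 53 or 54 bases before the start.

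The 10 members had 17 probes of 60 bases with 1 spot each. Of these, 15 were well above background on all 4 arrays, 16 passed the filter of being so on both arrays of at least 1 line, and none (0) was saturated. On hg19, the build of the scanner files, 15 probes lay within 93177 bases at chr16:56624793-56717969, and the other 2 were placed on chromosomes 20 and 1. MT1 genes are so alike that a probe can bind the RNA of several of them. The 4 probes below lie in coding sequence, and the longest run of bases that each shares with a probe of another member is in capitals, since these runs limit which gene a value can be credited to.
MT1X: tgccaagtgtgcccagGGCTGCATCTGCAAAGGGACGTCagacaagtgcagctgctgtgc
MT1H: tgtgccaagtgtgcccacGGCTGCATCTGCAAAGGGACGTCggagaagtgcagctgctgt
MT1A: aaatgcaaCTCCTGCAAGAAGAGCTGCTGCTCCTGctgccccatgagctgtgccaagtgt
MT1H, second probe: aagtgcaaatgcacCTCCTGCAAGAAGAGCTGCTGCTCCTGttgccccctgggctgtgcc
The first MT1X and MT1H probes share a run of 23 bases and are identical at 55 of 58 aligned bases, and the scanner files list transcripts of 3 genes for each. The MT1A probe and the second MT1H probe share 27 bases, are identical at 50 of 54, and list MT1M as well as their own gene. The brightest MT1E, MT1B and MT1G probes shared runs of 17 to 23 bases with another member. The MT1M probe and the brightest MT2A probe lie near the 3′ end of their transcripts, list 1 gene each, and shared runs of at most 9 and 6 bases with any other member.

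By its probe with the highest mean signal, each of the 10 members had a lower mean in the resistant than in the naive flasks, MT1F by 0.11 only, and MT1F turned to 0.01 higher with scale normalization. The median log2 difference over the 10 was -1.22 (resistant minus naive), against -0.02 over the 28221 probes tested. In 6 members the difference was at least 2-fold (MT2A, MT1X, MT1H, MT1E, MT1B and MT1M), as it was in 6.18% of all tested probes. In 8 members both resistant flasks lay below both naive flasks, as in 28.2% of all tested probes, and in MT1A and MT1F the lines overlapped. The fit across all probes called 1 of the 10, MT1M, beside 5.27% of all tested probes, 2.97% called lower and 2.3% called higher, and since the members were picked on this contrast nothing is read from these counts. The difference rested on 1 flask to a large degree. Without naive flask 1 the median was -0.57, and without naive flask 2 it was -1.91. In a bulk sample fewer cells expressing a gene and less of its RNA per cell cannot be told apart.

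**Figure D2:**
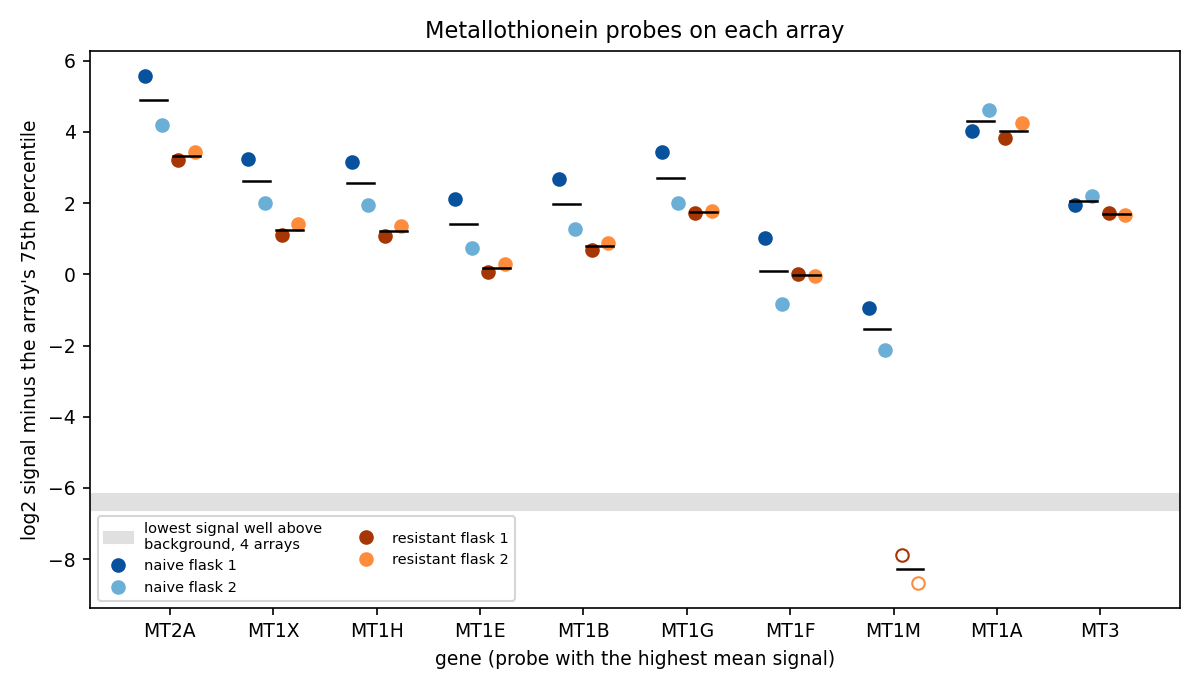
Log2 signal minus the 75th percentile of the array (vertical axis) for the brightest probe of each of the 10 members, with 1 point per flask, a black line for the mean of the 2 flasks of a line, open points where a probe was not well above background, and a grey band for the lowest signals that were. In the first 6 genes naive flask 1 is highest, naive flask 2 next and both resistant flasks lowest, and the resistant points of MT1M lie below the band.

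MT2A is the main metallothionein of most human cells. Its brightest probe, at chr16:56643332-56643391, was at 5.57 and 4.20 in naive flasks 1 and 2 and at 3.21 and 3.45 in resistant flasks 1 and 2. The resistant flasks lay close together and below both naive flasks, which stood well apart from each other. The mean was 4.88 ± 0.97 (SD, n = 2) in naive and 3.33 ± 0.17 (SD, n = 2) in resistant cells, a 2.94-fold higher level in naive cells. Naive flask 1 was 4.72-fold and naive flask 2 was 1.83-fold above the resistant mean. The other two MT2A probes gave the same picture. One was at 5.15, 3.73, 2.82 and 3.02 in the same order of flasks, and shared 49 bases with the brightest. The other, which shared at most 9 bases with either, was at 5.17, 3.85, 2.96 and 2.99. The 3 log2 differences between the lines spanned 0.03 only, from -1.56 to -1.52.

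MT1X is among the MT1 genes that respond to metals in many cell types. Its brightest probe was at 3.24 and 1.99 in the naive and at 1.12 and 1.40 in the resistant flasks, a difference of -1.36. A second probe that shared 48 bases with it was at 2.74, 1.39, 0.77 and 0.99. Both put naive flask 1 highest and the resistant flasks lowest. The third probe, at chr16:56716376-56716435, near the 5′ end of the transcript and with no RefSeq transcript listed, was at -2.94, -2.17, -3.05 and -2.68. There naive flask 2 was highest, naive flask 1 lay between the resistant flasks, and the difference between the lines was -0.31, so this probe did not show the order of the other two.

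MT1H, MT1E and MT1B are further metal-inducible copies. The brightest MT1H probe was at 3.15 and 1.95 in the naive and at 1.07 and 1.35 in the resistant flasks. The second MT1H probe, whose position the files give as chr1:237167547-237167606, was at 2.48, 1.74, 0.85 and 1.32. Both kept the order of naive flask 1, naive flask 2 and resistant flasks, with differences of -1.34 and -1.03. The MT1E probe was at 2.12 and 0.74 in the naive and at 0.07 and 0.28 in the resistant flasks, a difference of -1.25. The MT1B probe was at 2.67 and 1.26 in the naive and at 0.69 and 0.88 in the resistant flasks, a difference of -1.18. In both genes naive flask 1 was the flask that stood apart, more than 2-fold above any other.

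MT1G is another metal-inducible copy. Its brightest probe was at 3.42 in naive flask 1 and at 1.99 in naive flask 2, beside 1.73 and 1.77 in the resistant flasks. Naive flask 2 thus lay only 1.18-fold above the resistant mean, and naive flask 1 lay 3.18-fold above it. The second probe was at -0.35, -1.48, -1.42 and -1.61, so that naive flask 2 lay between the resistant flasks. The MT1F probe, at chr16:56693077-56693136, was at 1.01 in naive flask 1, at -0.83 in naive flask 2 and at 0.01 and -0.06 in the resistant flasks. Of all members MT1F alone had a naive flask below both resistant flasks, by 1.75-fold from their mean, and its 2 naive flasks differed by 3.58-fold, the widest gap among the brightest probes. Its mean difference between the lines was -0.11, and leaving out naive flask 1 or naive flask 2 moved it to 0.81 or -1.03.

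MT1M showed the largest difference of the members. Its probe, at chr16:56667810-56667869, was at -0.94 and -2.12 in the naive flasks and at -7.88 and -8.65 in the resistant flasks. It was well above background in both naive flasks and not well above background in either resistant flask. Its level in resistant cells is therefore known only as a bound, at least 30.8-fold lower than in naive cells by the floor used. For this bound the naive mean was set against the faintest signal that each resistant array still registered well above background. This is the most lenient floor, since a brighter probe can fail the test. In resistant flask 1 the floor was -6.32, and SLC12A3 at -6.23 was not well above background. A higher floor would give a smaller fold. The 2 naive flasks differed by 2.27-fold, the smallest among the 8 members in which naive flask 1 was at least 2-fold the higher. With the normexp background correction, which lifts low signals by an offset, the log2 difference was -1.60, and with bright local backgrounds reset first it was -2.51, both in the same direction.

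MT1A and MT3 did not follow the others. The MT1A probe was at 4.01 and 4.61 in the naive and at 3.82 and 4.25 in the resistant flasks. The lines overlapped, naive flask 2 was the highest, and the mean difference was -0.28. Leaving out naive flask 2 turned it to 0.02. The files place this probe at chr20:33805884-33805943, away from the cluster. MT3, a metallothionein that limits neurite growth in brain, was at 1.95 and 2.19 in the naive and at 1.72 and 1.68 in the resistant flasks by its brighter probe, at chr16:56624933-56624991. The lines did not overlap, but the difference was -0.37 and naive flask 2 was again the higher of the naive flasks. The dimmer MT3 probe was at -7.47 and -6.72 in the naive and at -7.51 and -6.52 in the resistant flasks. It was well above background in resistant flask 2 only and was not tested. The 2 MT3 probes, which list MT3 alone, thus gave very different levels. Which of them follows MT3 RNA was not tested, so the level of MT3 is uncertain.

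**Figure D3:**
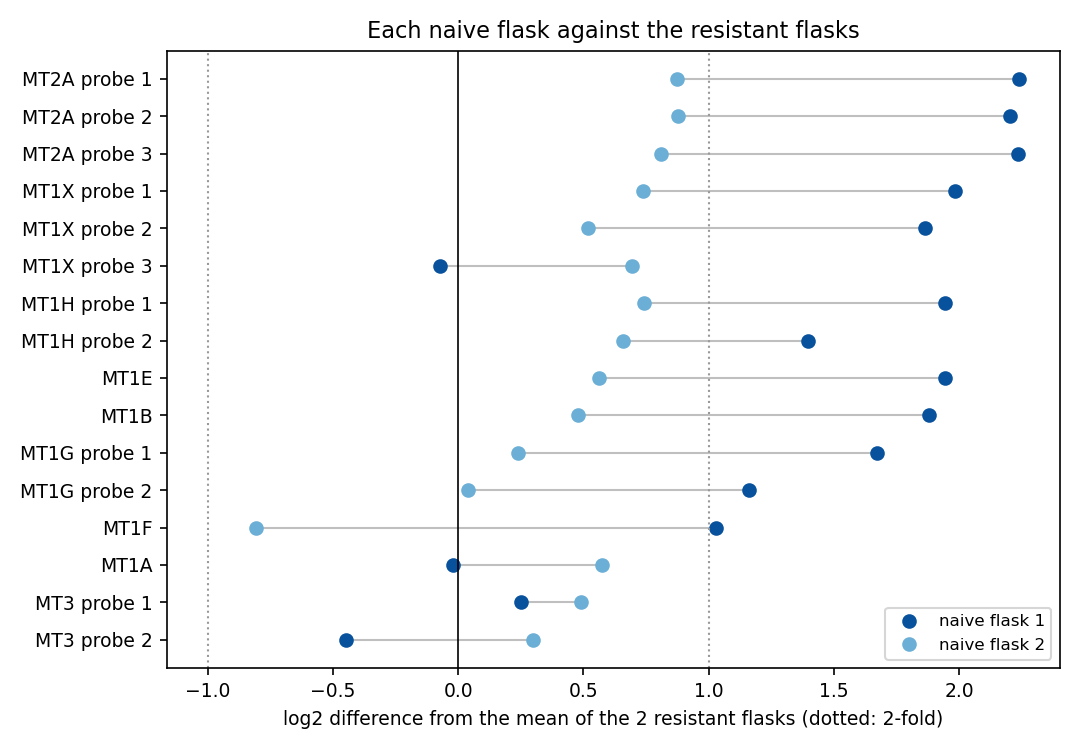
Log2 difference of each naive flask from the mean of the 2 resistant flasks (horizontal axis, dotted lines at 2-fold) for all member probes but that of MT1M, whose resistant level is only a bound, with probe 1 the brightest of its gene. Naive flask 1 lies more than 2-fold above the resistant mean in 12 probes from MT2A to MT1F, and naive flask 2 lies less than 2-fold from it in every probe drawn.

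The gap between the 2 naive flasks was of the same order as that between the lines. Naive flask 1 minus naive flask 2 had a median of 1.31 over the 10 members, against -0.05 over all probes tested, where the SD was 0.71. In 8 of the 10 members naive flask 1 was at least 2-fold higher, against 4.53% of all tested probes, and in MT1A and MT3 it was lower, by 0.60 and 0.24. The 8 differences ran from 1.18 in MT1M to 1.84 in MT1F. The order naive flask 1, then naive flask 2, then both resistant flasks held in 7 members and in 13.5% of all tested probes. From the resistant mean the median distance was 1.91 for naive flask 1 and 0.57 for naive flask 2. The resistant flasks differed from each other by at most 0.43 in the members that were measured in both, and the median difference was -0.20 (flask 1 minus flask 2). Labels give no difference between the naive flasks. The spike-in RNA went the opposite way. Relative to naive flask 2, the median log2 level of 6 usable spike-in controls was -1.31 in naive flask 1 and -0.24 and -0.27 in resistant flasks 1 and 2. When arrays were shifted to the spike-ins in place of the 75th percentile, the median over all tested probes became 1.26 for the naive flasks and that over the members 2.62, and the member median between the lines became -1.62 beside -0.42 for all probes. Since this scaling moves all probes of an array alike, the distance of the members from the other probes is the same by construction. The part of RNA input in the gap was not tested.

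**Figure D4:**
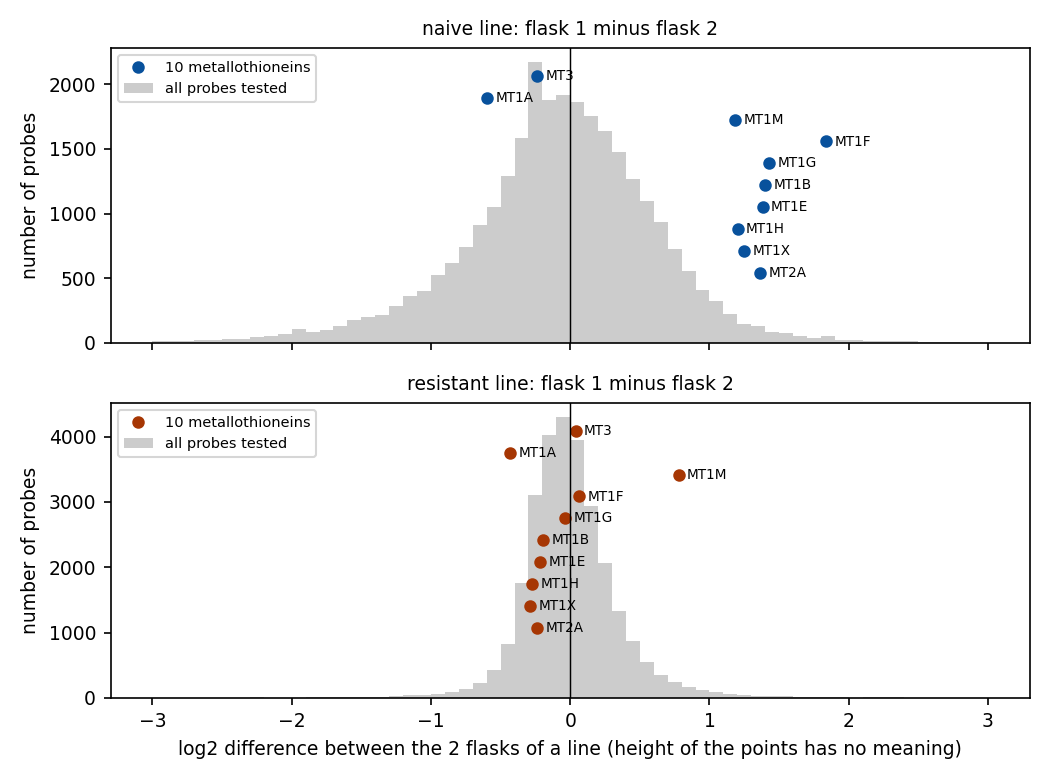
Log2 difference between the 2 flasks of the naive line (upper panel) and of the resistant line (lower panel), with the number of tested probes per bin of 0.1 in grey and the brightest probe of each of the 10 members as points whose height has no meaning. In the naive line 8 members lie between 1.18 and 1.84, and in the resistant line all members but MT1M, which is below background there, lie within 0.43 of 0.

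Outside the members, the array held probes for 2 other named metallothionein genes. The probe of MT1L, a transcribed pseudogene that lies in the cluster between MT2A and MT1E, was at 2.99 and 1.55 in the naive and at 0.79 and 1.09 in the resistant flasks. It shared 19 bases with the MT1F probe, was identical at 38 of 42 aligned bases to the MT1E probe, and had the order of flasks seen in MT2A. Whether the value belongs to MT1L alone was not tested. The probe of MT4 was not well above background on any array.

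Zinc and copper handling genes were read as the metal-sensing setting of the metallothioneins. Of 32 such genes 29 were tested, and limma called 0 of them, against 6.21% of 13856 named genes. At an unadjusted p below 0.05 there was 1, SLC39A13, a zinc importer of the secretory pathway that was chosen for naming after its values were seen, with a difference of 0.81 ± 0.25 (SE) and a limma adjusted p of 0.168. The median difference over the 29 was -0.01. MTF1, the factor that binds the elements shown above, was at 1.18 in both naive flasks and at 0.81 and 1.16 in the resistant flasks, a difference of -0.20 ± 0.24 (SE) with a limma adjusted p of 0.710. SLC30A1, the zinc exporter that MTF1 switches on together with the metallothioneins, was at 0.73 and 0.36 in the naive and 0.25 and 0.30 in the resistant flasks, a difference of -0.27 ± 0.24 (SE) with a limma adjusted p of 0.596. These p-values do not show that the genes were alike in both lines.

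Other pathways that induce metallothioneins were covered by 40 genes, of which 37 were tested. limma called 3 of them (8.11%), 2 lower and 1 higher, beside 6.21% of all named genes (3.33% lower and 2.87% higher). KLF9, a glucocorticoid-induced transcription factor, was at 0.71 in both naive and at -0.46 and -0.50 in the resistant flasks (limma adjusted p of 0.0450). HSPB1, a small heat shock protein, was at 4.00 and 3.71 in the naive and at 2.01 and 2.16 in the resistant flasks (limma adjusted p of 0.0171). The naive flasks of KLF9, and those of HSPB1, lay less than 2-fold apart. The files place the HSPB1 probe at chr9:74622771-74622830, and whether its value belongs to HSPB1 alone was not checked. Of the 37 tested genes 4, named after their values were seen, had naive flask 1 at least 2-fold above naive flask 2, as 8 of the members had, and 5 had the opposite. The heat shock protein gene HSPA1A was at 1.98 and 0.51 in the naive and at -0.81 and -1.48 in the resistant flasks, the order of flasks seen in MT2A, and was not called (difference of -2.39, limma adjusted p of 0.0844). ADM, which encodes the hypoxia-induced peptide adrenomedullin, and NQO1, an NRF2 target, also had this order, with naive gaps of 1.28 and 1.34. HSPH1, a heat shock protein with a naive gap of 1.23, did not, as its naive flask 2 was the lowest flask, and none of the 4 was called. MX1, an interferon-induced GTPase, was higher in the resistant line, at -3.76 and -3.79 against -5.62 and -5.20 in naive cells (limma adjusted p of 0.0273). The regulators themselves were not called. NR3C1 (glucocorticoid receptor) differed by 0.31, HIF1A (hypoxia) by 0.41, HSF1 (heat shock) by 0.32, NFE2L2 (NRF2, oxidative stress) by -0.17 and STAT3 by -0.59, with limma adjusted p-values of 0.353 to 0.719. By pathway, 1 of 8 glucocorticoid response genes, 0 of 7 hypoxia genes, 1 of 6 heat shock genes, 0 of 8 NRF2 genes and 1 of 8 interferon and STAT3 genes were called. The called genes did not stand for their lists. Of the 8 glucocorticoid genes 3 were lower in the resistant line (median difference 0.218), and of the 6 heat shock genes 3 (median -0.011). Of the 8 interferon and STAT3 genes 7 were lower (median -0.997), although MX1 was higher. MX1 was not called with normexp, where its difference was 0.64, or with bright local backgrounds reset, where it was 0.67. KLF9 was not called with scale normalization or a shift to the median. With either resistant flask left out the count was 0 (7 or 6 at an unadjusted p below 0.05), and without naive flask 1 or 2 it was 11 or 10.

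The neighbourhood of the cluster was read to see how far along the chromosome the difference reached. Within 1000000 bases on either side lay 29 other named genes, by the positions that the files give their probes. These positions were not checked against a genome. A gene's distance was taken from its nearest probe and its values from its brightest, which can be a different probe. The brightest probes of NUP93 and SLC12A3 have no position given, so these genes were placed by another probe. Of the 29 genes 24 were tested and 2 called (8.33%), beside 6.21% of all named genes. The nearest genes were not called. On 1 side BBS2, a ciliary trafficking gene 106.1 kilobases away, differed by 0.57 and OGFOD1, a ribosomal prolyl hydroxylase, by -0.35. On the other side NUP93, a nuclear pore protein 64.2 kilobases away, was at 3.44, 2.69, 2.59 and 2.34 and differed by -0.60 ± 0.32 (SE, limma adjusted p of 0.391), and SLC12A3, a kidney salt transporter, differed by -0.20. Both called genes lay far out. CES1, a carboxylesterase 777.9 kilobases away, was at 0.45 and -0.05 in the naive and 2.34 and 2.25 in the resistant flasks (limma adjusted p of 0.0145). ADGRG1 (GPR56 on the array), an adhesion receptor 980.5 kilobases away on the other side, was at -4.10 and -4.83 in the naive and -7.23 and -6.40 in the resistant flasks (limma adjusted p of 0.0378). Its probe was not well above background in resistant flask 1. ADGRG1 was not called with quantile normalization, and its difference was -0.49 with bright local backgrounds reset before normexp and 0.016 with plain normexp. The median over the 24 was -0.16. Without resistant flask 1 none (0) of the 24 was called (2 at an unadjusted p below 0.05), and without resistant flask 2 only ADGRG1 was.

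**Figure D5:**
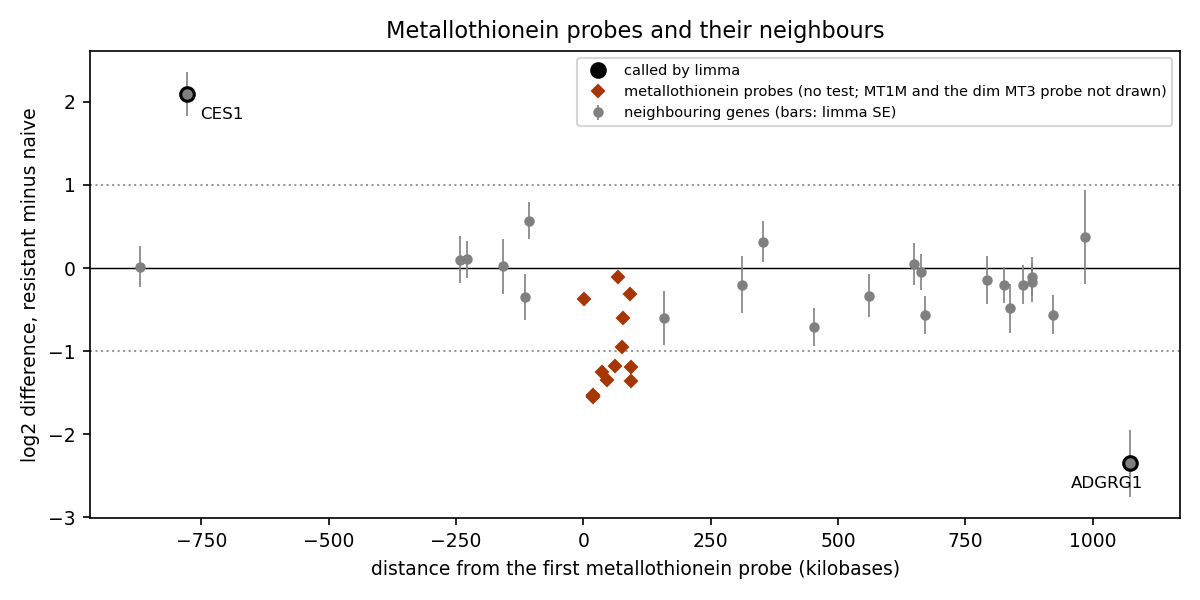
Log2 difference between the lines (vertical axis, resistant minus naive) against the distance in kilobases from the first metallothionein probe on chromosome 16, for 24 tested neighbouring genes (grey, bars are limma standard errors), the called genes CES1 and ADGRG1 (black points) and the metallothionein probes in the cluster (red diamonds, with no test). MT1M, whose resistant level is only a bound, and the dimmer MT3 probe, which was not tested, are not drawn. The metallothionein probes drawn run from -0.11 to -1.56, and no tested neighbour nearer than CES1 lies beyond the dotted 2-fold lines.

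Genes whose centred values over the 4 arrays were nearest to those of a member were sought among 12594 genes, by Euclidean distance. Metallothionein genes were left out of these 12594. The starting member was MT1A, whose probe has the highest mean signal. Its 5 nearest were AHSG, CCL24, LSM8, SLC11A1 and GPR135, at distances of 0.04 to 0.06. Of the other member probes, measured apart from this search, only the 5′ probe of MT1X came close to MT1A. It lay at a distance of 0.13, with 17 genes nearer. MT2A was added as a starting point after the values were seen. Its 5 nearest genes outside the family were S100B, FADS1, CYP51A1, TTC30B and ADM, at distances of 0.13 to 0.22. The first MT1X probe lay at 0.22, the first MT1H probe at 0.25 and MT1E at 0.30 from MT2A, and 4, 7 and 8 genes were nearer. MT1F was farther, at 1.50 with 2139 genes nearer, and MT1A at 1.89 with 6246. Over 4 arrays many genes must resemble any pattern, and the distances say which members went together and nothing of what they do.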

How the data were processed

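Per the file headers, the authors read the 4 arrays with Agilent Feature Extraction 10.5.1.1 and deposited its processed signal, a background-subtracted intensity on a linear scale, with probe positions on hg19. An alternative background correction used the mean signal and local background, intensity columns in the same deposited files. A further alternative was the log2 table that the authors deposited, in which each array is shifted to its own 75th percentile. For the values given here, control and outlier spots were dropped, log2 of the processed signal was averaged over a probe's spots, and each array's 75th percentile was taken off. At least 40839 probes per array lay within 0.01 of the deposited table after its median difference was taken out.

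A probe entered the test if both arrays of 1 line or more showed it well above background, and was tested with lmFit and eBayes of limma 3.58.1 (R 4.3.3), with Benjamini-Hochberg adjustment over 28221 probes, and was called at an adjusted p below 0.05 and at least 2-fold. With 2 flasks per line an exact permutation test of 1 probe cannot go below 0.333, and precision is limited by having 4 arrays. Named genes are given by their brightest probe. The limma step was tested on simulated data. The members and gene lists were chosen with earlier results of these data known. Named were all probes of the members and other metallothionein genes, MTF1, SLC30A1, 5 regulators and called genes of the lists. Also named were the nearest 2 neighbours on each side and the 5 non-metallothionein genes most like the member with the highest mean signal. Alternatives were other background corrections, normalizations, filters and tests, the replicate block and each flask left out.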

Additional observations from a re-analysis of the deposited data

How the results depend on the processing

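The median difference of the members between the lines stayed between -1.62 and -1.07 under the other background corrections, normalizations, probe choices and spike-in scaling, and between -1.91 and -0.57 with 1 flask left out. The median gap between the naive flasks rose to 2.62 with spike-in scaling. Of 110 single-member values 106 moved by less than 1 SD between flasks, and 3 changed sign, in MT1F and MT1A. This count is in part fixed by construction. Leaving out a flask cannot move a value by more than this SD, and a member with 1 probe cannot move with the mean over all probes. The count therefore does not measure how much rests on 1 flask. MT1F went from -1.03 without naive flask 2 to 0.81 without naive flask 1. Normexp and scale normalization shifted the median of all tested probes by 0.15 and 0.10.

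Of the 1487 changed probes, 0 were left with normexp (929 at an unadjusted p below 0.05), 760 when all 4 arrays had to register the probe well above background and 0 with the methods' t-test after adjustment (4138 at an unadjusted p below 0.05, of which 1833 were at least 2-fold), while leaving out a flask gave 728 to 4536. On the zinc and copper list limma and the t-test called 0 genes under every alternative (0 to 10 at an unadjusted p below 0.05). The 3 genes of the inducing pathways became 0 with normexp and with the adjusted t-test, 5 with bright backgrounds reset (2 of the 3 among them, without MX1) and with an intensity trend, 1 without a filter on dim probes, 7 with the mean over all probes, and 0 to 11 with a flask left out. The 2 flanking genes became 0 with normexp and with the adjusted t-test, 1 with bright backgrounds reset, quantile normalization, no dim filter, all 4 arrays, the unadjusted t-test and the replicate block, and 0 to 3 with a flask left out. ADGRG1 turned to 0.016 with normexp, was at -0.49 with bright backgrounds reset, and lost its call there, with quantile normalization and with the replicate block. KLF9 lost its call with scale normalization, a median shift and the replicate block. The causes were not tested.

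With the replicate block, same-numbered flasks being paired, 1375 probes were called, but the deviations of same-numbered flasks correlated at 0.12 only, and with 2 pairs the numbers do not show a shared origin. The slide could not be a block, since all arrays lay on 1. Bright backgrounds reset, members on chromosome 16 only and spike-in scaling were chosen after the data were seen. Probes near background, MT1M in resistant cells among them, give bounds only.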
